A study of Mus musculus with 24 samples.

Results

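Gonadal and inguinal white fat were compared within mice labelled as FoxO1 knockouts in adipose tissue. The comparison took every knockout library of the series, grouped by animal number and fat pad from the library names, with the 2 libraries of a pad averaged. It thus holds 6 pads of 3 mice (12 libraries), out of 12 pads of 6 mice (24 libraries) in all. The series set out to map what FoxO1 regulates in fat. Its control mice carried the floxed, unrecombined FoxO1 gene, and their 6 pads are used here only beside the knockout values.

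The knockout mice bear the genotype label FoxO1 knockout and are described as a conditional knockout in adipose tissue. They are named M5, M9 and M12, and the controls, labelled floxed FoxO1, M6, M7 and M10. No treatment is named for either genotype. The sources used here do not give the Cre driver, the part of the gene removed, or the strain, age, sex and diet of the mice. That the letters of the library names mark genotype and pad was inferred, with the gonadal pad read as epididymal, the pad of male mice. RNA was taken from whole pads, so macrophages, mesothelial cells and vessels contribute beside adipocytes, and fewer cells of a type and less RNA per cell cannot be told apart. Nothing states that the libraries of a pad came from separate pieces of tissue, and the p-values below measure the spread between these 3 mice.

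White fat stores triglyceride and releases fatty acids and hormones. The gonadal pad is a visceral pad that hangs in the abdominal cavity under a mesothelial covering and gathers macrophages readily when fat is gained. The inguinal pad lies under the skin, arises from a different part of the embryonic mesenchyme, and can form beige adipocytes, which burn fuel for heat through the uncoupling protein Ucp1. FoxO1, a forkhead factor, is held in the cytoplasm when insulin activates Akt.

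Levels are given as FPKM, reads scaled to the listed gene length and to all reads of the library assigned to genes. Where 3 values are listed, they are those of M5, M9 and M12 in that order. A difference is the mean gonadal minus the mean inguinal value of log2(FPKM + 0.5), so a positive difference means more transcript in gonadal fat, and the 0.5 makes it understate the ratio of low genes. A gene was called when its adjusted p from limma was under 0.05. Folds are ratios of mean FPKM.

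The 12 knockout libraries held 18347183 to 24386071 reads assigned to genes. Across genes, r was 0.992 to 0.996 between the libraries of one pad, 0.894 to 0.985 between mice within a depot, and 0.799 to 0.901 between depots. Several pads stood apart in transcripts of neighbouring tissue. The gonadal pad of M12 held 11795 FPKM summed over 36 epididymis and male tract genes, against 2.14 and 3.49 FPKM in the gonadal pads of M5 and M9 and 0.994 to 1.86 FPKM in inguinal pads. The summed B cell and lymph node markers stood at 491, 10.2 and 800.5 FPKM in the inguinal pads, so that M9 lacked what M5 and M12 carried, and at 263 to 366 FPKM in gonadal pads. Faim3 is also listed there as Fcmr, so its level entered each of these sums a second time. Skeletal muscle genes summed to 192, 533 and 81.0 FPKM in inguinal and 56.7, 64.8 and 129 FPKM in gonadal pads. Without the gonadal pad of M12 the comparison called 4502 genes higher and 1817 lower, and without the inguinal pad of M9 4181 and 1661.

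**Figure D1:**
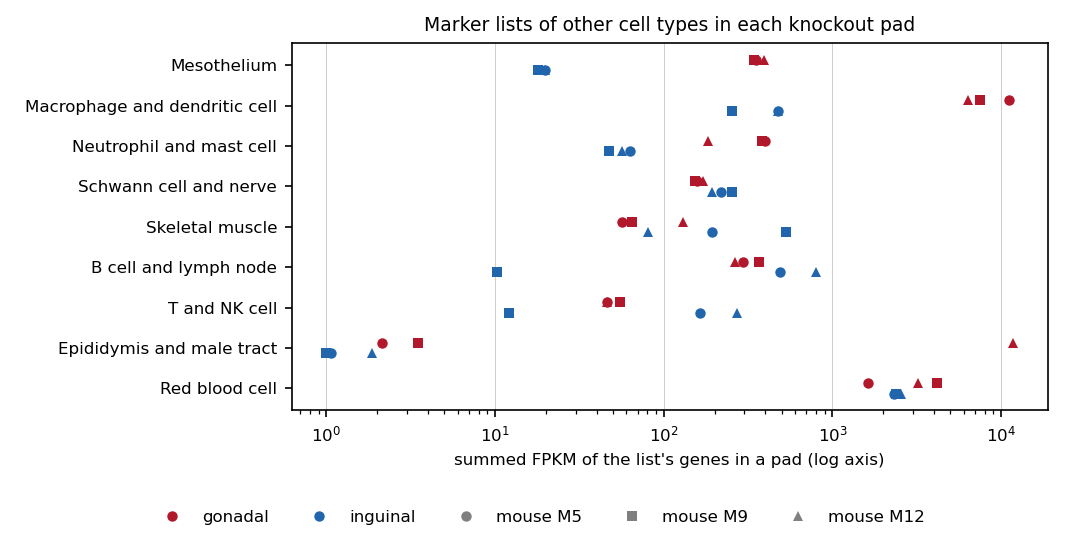
Summed FPKM of marker lists of other cell types (log axis) in each of the 6 knockout pads, with one point per pad, coloured by depot and shaped by mouse. The epididymal sum of the gonadal pad of M12 (11795 FPKM) and the B cell sum of the inguinal pad of M9 (10.2 FPKM) stand away from the other pads of their depot, while the mesothelium and macrophage sums separate the depots.

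Foxo1 itself (ENSMUSG00000044167, chromosome 3, 52268337 to 52350109, + strand, mm10) did not separate the depots of knockout mice. It stood at 4.07, 4.46 and 4.01 FPKM in gonadal pads and 4.12, 2.49 and 5.69 FPKM in inguinal pads. The inguinal values lie on both sides of the gonadal ones. The difference was 0.09 (SE 0.26, adjusted p = 0.801), and an exact two-sided permutation test over the 20 regroupings gave p = 0.9, where 0.1 is the smallest this design allows. Every knockout pad was below every control pad, where the means were 10.3 FPKM in gonadal and 15.7 FPKM in inguinal fat.

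The depots differed across much of the transcriptome, in 6971 of the 14593 genes tested (47.8%). Gonadal fat was higher for 5122 genes (35.1%) and inguinal fat for 1849 (12.7%). Differences of at least 2-fold numbered 2058 toward gonadal and 540 toward inguinal fat, and those of at least 4-fold numbered 749 and 74. The median difference over all genes tested was 0.27. In 63.5% of genes tested, no gonadal pad overlapped any inguinal pad.

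The balance between the directions depends on how pads are scaled. FPKM divides by all reads of a library, and the 20 most abundant genes took 12.6%, 15.3% and 14.0% of reads in gonadal pads but 23.9%, 27.1% and 24.2% in inguinal pads. Rescaling by size factors moved the differences of shared genes by a median of -0.26. It left 3059 genes higher (21%) and 3105 lower (21.4%) of 14540 tested, so gonadal calls were 49.6% of all calls in place of 73.5%. All 1849 inguinal genes were still called, none was called in the opposite direction, and 104 called genes changed sign without being called. List counts below are to be read against the 35.1% and 12.7% of all genes called higher and lower.

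**Figure D2:**
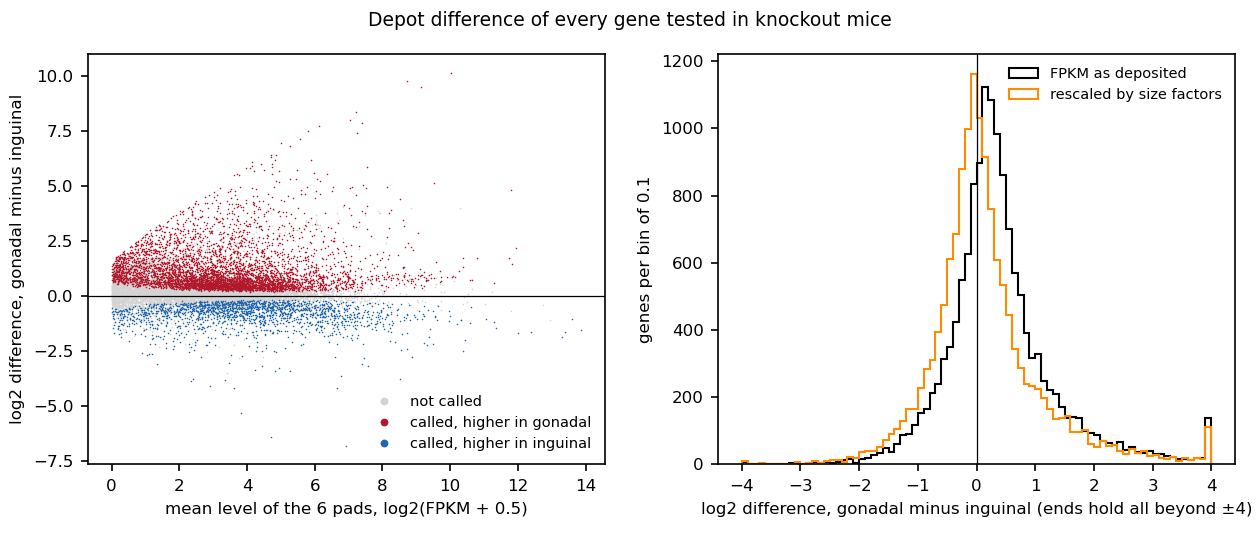
Mean level of each of the 14593 tested genes in knockout pads against its difference between depots, on the log2(FPKM + 0.5) scale. Called genes are coloured by direction on the left, where the spread runs from Saa3 (10.14) to Cidea (-6.82), and the right panel counts genes per bin of the difference before and after rescaling by size factors, which moves the peak from just above to just below 0.

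Genes of macrophages loaded with lipid and of the acute phase led the gonadal side. Saa3 (ENSMUSG00000040026, chromosome 7, 46711998 to 46715676, - strand, mm10), an acute-phase serum amyloid made in fat and macrophages, stood at 2744, 2358 and 1108 FPKM in gonadal pads and 1.68, 0.656 and 1.49 FPKM in inguinal pads. Arg1 (ENSMUSG00000019987, chromosome 10, 24915208 to 24927470, - strand), the arginase of alternatively activated macrophages, stood at 1294, 696 and 542 against 0.481, 0.455 and 0.322 FPKM. Spp1, osteopontin, a secreted matrix protein that draws macrophages, stood at 1798, 786 and 772 against 1.46, 0.924 and 0.560 FPKM. For all 3 genes the lowest gonadal pad lay far above the highest inguinal pad, and M5 had the highest gonadal value. Lack of overlap between the depots was a condition for the choice of these leading genes. The differences were 10.14 for Saa3 (SE 0.41, adjusted p = 0.00016), 9.75 for Arg1 (SE 0.32, adjusted p = 0.000111) and 9.49 for Spp1 (SE 0.39, adjusted p = 0.00016).

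Mmp12, the macrophage elastase, followed with 422, 219 and 255 FPKM in gonadal and 0.336, 0.206 and 0.659 FPKM in inguinal pads (difference 8.35, SE 0.30, adjusted p = 0.000113). Gpnmb, a membrane glycoprotein of lysosome-rich macrophages, had the smallest SE of the 10 leading genes, with 379, 232 and 294 against 1.44, 1.22 and 1.19 FPKM (difference 7.38, SE 0.18, adjusted p = 5.69e-05). Clec4d, a C-type lectin receptor of myeloid cells, differed by 7.13 and Vsig8, an immunoglobulin-domain protein, by 7.48. Slpi, a secreted inhibitor of neutrophil proteases, stood at 431, 315 and 252 FPKM in gonadal pads and 1.33, 0.0568 and 2.20 FPKM in inguinal pads. The M9 inguinal pad was the lowest for Slpi (difference 7.86, SE 0.59, adjusted p = 0.000449).

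A pair of immunoglobulin variable segments stood among the leading genes. Ighv11-2 had 227, 98.4 and 91.2 FPKM in gonadal and 0.0731, 0 and 0.291 FPKM in inguinal pads, and Igkv14-126 had 415, 205 and 169.7 and 0.669, 0 and 0.986 FPKM. These segments are known to be used together by B-1 cells of the body cavities. The differences were 7.71 (SE 0.38) and 8.0 (SE 0.51). The inguinal pads of M5 and M12 were near 0 here although their B cell and lymph node sums were the highest of the 6 knockout pads. Segments of such families resemble each other closely, and the sources used here do not say how reads shared by them were assigned.

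**Figure D3:**
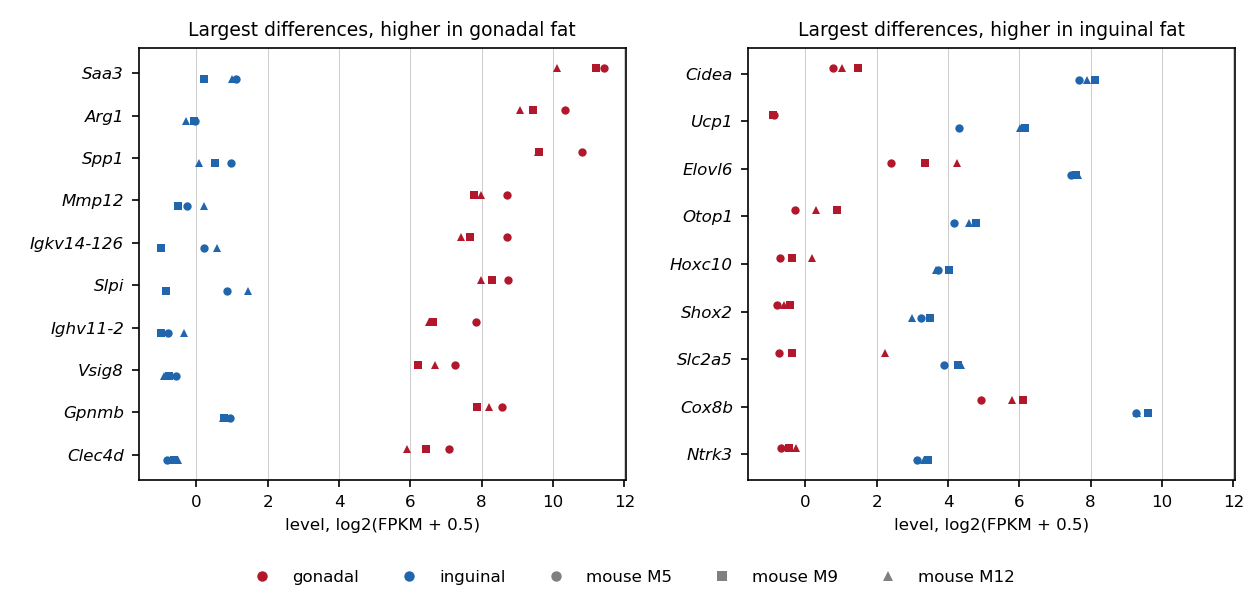
Level, as log2(FPKM + 0.5), of the genes with the largest depot differences in each knockout pad, with colour for the depot and shape for the mouse. The 10 genes higher in gonadal fat run from Saa3 to Clec4d and 9 of the 10 higher in inguinal fat from Cidea to Ntrk3. They were chosen among called genes whose pads do not overlap between the depots.

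Among the most abundant transcripts with at least a 2-fold difference, the gonadal side held iron storage and myeloid genes. Lyz2, the lysozyme of macrophages and neutrophils, stood at 9148, 6158 and 5086 FPKM in gonadal and 311, 133 and 320.5 FPKM in inguinal pads (difference 4.8, SE 0.41, adjusted p = 0.00058). The ferritin chains Ftl1 and Fth1 differed by 2.19 and 1.45. Apoe, the lipid-carrying apolipoprotein that macrophages and adipocytes both make, stood at 5309, 5509.6 and 5031 against 1600.3, 1588 and 1607 FPKM and differed by 1.72. Tmsb4x, an actin-binding peptide, differed by 1.73 (adjusted p = 0.0053), and by 1.60 with adjusted p = 0.0698 when both pads of M5 were left out.

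Of 23 tested macrophage and dendritic cell markers, 18 were higher in gonadal fat, 1 was lower (Mgl2, a lectin of alternatively activated macrophages, -0.99) and 4 were not called, with a median difference of 2.27 against 0.27 for all genes. The counts were the same after rescaling, and 18 were called higher in every fit that left out 1 pad. Trem2, a lipid-sensing receptor of macrophages in obese fat, stood at 73.4, 47.8 and 45.8 FPKM in gonadal pads and 0.351, 0.27 and 0.161 FPKM in inguinal pads (difference 6.18, SE 0.21, adjusted p = 0.000111). Emr1, the gene of the F4/80 antigen, stood at 51.9, 36.1 and 35.0 against 3.23, 2.50 and 2.88 FPKM and differed by 3.6. The largest inguinal value lay far below the smallest gonadal one for both. Itgam, the integrin CD11b, differed by 4.78, and Fcgr1, a high-affinity receptor for IgG, by 2.60. Cd9, a tetraspanin, differed by 4.12. The summed level of the list was 6379 to 11178 FPKM in gonadal and 253 to 479 FPKM in inguinal pads.

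Promoter letters are shown for 3 genes of macrophages, Cd68 and Itgax of the list and Mmp12 from the leading genes. The proteins of Fos, Junb and Atf3, whose transcripts are described below, bind the AP-1 site TGAGTCA. Whether they act at these promoters was not tested. Windows of 300 bases, 250 before and 50 after the annotated start, were read on both strands from the RefSeq promoters of GRCm38.p6. The AP-1 letters were found in 4 of 19 macrophage list genes with a promoter (21.1%), against 1607 of 27025 genes in all (5.95%). They occurred in 2 of 20 inflammatory genes, 0 of 17 immediate early genes and 3 of 25 oxidative phosphorylation genes (12%), a list lower in gonadal fat. The search covered 7 motifs in 8 lists. They were AP-1, the ERR site TCAAGGTCA, the nuclear receptor letters AAGGTCA that lie within it, the PU.1 site GAGGAAGT, the cAMP response element TGACGTCA, the E box CACGTG and the ETS site ACTTCCGG. AP-1 was singled out after the counts were seen. The letters of PU.1, a factor of myeloid cells, were in 0 of 19 macrophage genes and in 3.69% of all. A match describes the letters only. The 250 bases before the start of Cd68 (chr11:69666171-69666420, - strand), Itgax (chr7:128129300-128129549, + strand) and the second listed start of Mmp12 (chr9:7347124-7347373, + strand; the first listed start has no match) follow, 5′ to 3′, with the AP-1 letters in capitals.
Cd68: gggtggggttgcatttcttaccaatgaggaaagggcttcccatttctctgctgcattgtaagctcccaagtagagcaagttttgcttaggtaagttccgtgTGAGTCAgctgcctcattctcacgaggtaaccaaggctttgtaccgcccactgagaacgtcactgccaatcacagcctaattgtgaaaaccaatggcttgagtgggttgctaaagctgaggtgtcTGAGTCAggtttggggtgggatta
Itgax: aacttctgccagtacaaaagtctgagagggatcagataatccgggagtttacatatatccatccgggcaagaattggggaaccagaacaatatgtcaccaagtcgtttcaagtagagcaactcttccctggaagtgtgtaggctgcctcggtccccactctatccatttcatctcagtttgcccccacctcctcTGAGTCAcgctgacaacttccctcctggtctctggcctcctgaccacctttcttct
Mmp12: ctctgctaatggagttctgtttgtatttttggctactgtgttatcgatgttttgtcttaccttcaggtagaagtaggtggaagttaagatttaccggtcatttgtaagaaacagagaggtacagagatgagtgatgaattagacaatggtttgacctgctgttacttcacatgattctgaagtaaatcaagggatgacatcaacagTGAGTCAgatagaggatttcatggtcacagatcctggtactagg
The first bases of the matches lay 149 and 24 bases before the start in Cd68, 56 in Itgax and 44 in Mmp12. Cd68, a lysosomal glycoprotein of macrophages, stood at 389.8, 223 and 236 FPKM in gonadal and 11.6, 7.91 and 15.0 FPKM in inguinal pads. Itgax, the integrin CD11c, stood at 75.3, 41.9 and 49.5 against 0.848, 0.399 and 2.09 FPKM. Both genes were taken for their matches, after their levels were known.

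Inflammatory and complement genes were shifted as a block, with 27 of 30 tested higher in gonadal fat and a median of 2.27. The eosinophil chemokine Ccl11 was the 1 lower member (-0.52), and its call was lost with the animal as a block (adjusted p = 0.051). After rescaling 24 were higher and 1 lower, and 16 were higher without both pads of M5. Il1rn, the antagonist of the interleukin-1 receptor, stood at 77.5, 43.3 and 34.4 FPKM in gonadal and 0.339, 0.121 and 0.667 FPKM in inguinal pads (difference 5.86, SE 0.36, adjusted p = 0.000299). Tlr2, a receptor for bacterial lipoproteins, differed by 3.85. The complement genes called included C7, a part of the membrane attack complex (2.95), and C1qb, a chain of the first component (3.10). The gonadal pad of M5 was the highest and that of M12 the lowest for Il1rn, Tlr2 and C1qb alike. Of the neutrophil and mast cell markers, 6 of 11 were higher and 1 lower (3 lower after rescaling). Without both pads of M5 4 were higher and none lower, and without those of M9 4 and 1. S100a8 and S100a9, the calgranulins of neutrophils, stood at 157, 142 and 71.7 and 171, 156 and 63.4 FPKM in gonadal pads and at 3.10, 4.89 and 7.34 and 1.62, 1.58 and 5.54 FPKM in inguinal pads, with M12 the lowest gonadal and the highest inguinal pad for both. Csf3r, the G-CSF receptor, differed by 3.58 and Retnlg, a neutrophil resistin relative, by 3.51. The lower member was Mcpt4, a mast cell protease, at 3.43, 6.46 and 2.73 FPKM in gonadal and 17.7, 12 and 12.5 FPKM in inguinal pads (difference -1.69, SE 0.31, adjusted p = 0.00702).

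Mesothelial genes separated the depots widely. Of 16 tested, 13 were higher in gonadal fat and none lower (1 lower after rescaling), with a median of 4.23, and 13 or 14 were called higher in each fit that left out 1 pad. Upk3b, a uroplakin of mesothelial cells, stood at 66.3, 66.8 and 56.4 FPKM in gonadal and 0.0444, 0 and 0.0219 FPKM in inguinal pads (difference 6.93, SE 0.10, adjusted p = 8.99e-06). Upk1b stood at 36.0, 33.0 and 34.9 against 0.0746, 0 and 0 FPKM and Msln, mesothelin, at 26.8, 24.5 and 23.5 against 0.0380, 0.0473 and 0.0751 FPKM. In each case the gonadal pads lay within a narrow band and the inguinal pads near 0. The differences of Upk1b and Msln were 6.07 and 5.52. The summed level of the list was 343 to 394 FPKM in gonadal and 17.9 to 19.9 FPKM in inguinal pads.

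Transcription factors that pattern the body axis and the mesenchyme split by depot. Of 29 tested depot factors 13 were higher in gonadal and 6 in inguinal fat (11 and 8 after rescaling, and 3 in inguinal fat without both pads of M5). Wt1 (chromosome 2, 105126529 to 105173616, + strand), the Wilms tumour factor of mesothelium and visceral mesenchyme, stood at 29.2, 23.0 and 17.5 FPKM in gonadal and 0.0170, 0 and 0.0421 FPKM in inguinal pads (difference 5.49, SE 0.19, adjusted p = 0.000113). Tcf21, a bHLH factor of visceral mesenchyme, stood at 2.73, 3.76 and 2.54 FPKM in gonadal pads and had no read in any inguinal pad. Against a floor of 3 reads over the 3 inguinal pads, its mean was at least 142-fold higher. Bnc1, basonuclin 1, stood at 5.36, 3.38 and 3.03 against 0, 0 and 0.00552 FPKM, and Gata6, a GATA factor of internal organs, at 28.8, 20.6 and 18.5 against 3.04, 3.55 and 2.82 FPKM. None of these 4 genes overlapped between the depots, as was true of 63.5% of all genes tested.

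Further factors higher in gonadal fat were Osr1, an odd-skipped factor of lateral mesoderm (2.88), the homeodomain cofactors Meis1 (1.24) and Meis2 (0.99), and the forkhead factors Foxc2 (1.21) and Foxc1 (0.88). Foxc2 was not called without both pads of M9 (adjusted p = 0.0869), nor Foxc1 without those of M5 (0.0897) or M9 (0.0777). Nr2f2, the nuclear receptor COUP-TFII, differed by 0.55 but not after rescaling (adjusted p = 0.0567). Its relative Nr2f1 differed by 0.73, with adjusted p = 0.0537 when the animal was fitted as a block, 0.0551 without the gonadal pad of M9 and 0.0515 without the inguinal pad of M5. Irx3, an Iroquois factor, stood at 7.33, 4.81 and 2.33 against 1.56, 1.43 and 1.44 FPKM, with M12 the lowest gonadal pad, and its call was lost after rescaling (adjusted p = 0.0564) and in 5 of the 6 fits that left out 1 pad, the exception being the fit without the gonadal pad of M12 (the others from 0.0552 to 0.0816).

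On the inguinal side, Shox2, a homeobox factor of limb mesenchyme, stood at 9.0, 10.7 and 7.50 FPKM in inguinal and 0.0731, 0.24 and 0.155 FPKM in gonadal pads (difference -3.86, SE 0.17, adjusted p = 0.000178). Tbx15, a T-box factor of subcutaneous fat precursors, stood at 4.13, 4.57 and 3.49 against 0.0145, 0.0354 and 0.0353 FPKM (difference -3.10, SE 0.15, adjusted p = 0.000213). The gonadal pads were near 0 for both. Lhx8, a LIM homeobox factor, differed by -1.86, and En1, the engrailed factor of ectoderm and dermis, by -1.33. Osr2 differed by -0.99. Some of these calls were lost when both pads of 1 mouse were left out, En1 without M9 (adjusted p = 0.0526) and Osr2 without M5 (0.076). Shox2 lies within the gene Rsrc1, and the sources used here do not say whether reads were assigned by strand.

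Of the Hox genes, which record position along the body, few were called. Among 7 tested genes of cluster A 1 was higher, 2 were lower and 4 were not called, and among 6 of cluster C 1, 2 and 3. Hoxc10 stood at 12.7, 15.7 and 12.2 FPKM in inguinal and 0.113, 0.277 and 0.634 FPKM in gonadal pads (difference -4.10, SE 0.24, adjusted p = 0.00029). Hoxa9 (-1.96), Hoxa10 (-2.35) and Hoxc9 (-1.46) were also lower in gonadal fat. Hoxa5 stood at 7.83, 7.65 and 6.09 against 1.77, 2.33 and 1.89 FPKM and was higher in gonadal fat (1.62), as was Hoxc4 (0.97). Among these few calls of the 2 clusters, the genes of higher number were inguinal and the 1 of lower number in each cluster was gonadal. Hoxc6 and Hoxc8 were lower after rescaling (adjusted p = 0.0357 and 0.0442) and with the animal as a block (0.0232 and 0.026), but not in the comparison as reported (0.094 and 0.102). Several of these genes overlap one another in the annotation, among them Hoxa5 with Hoxa3 and Hoxc10 with Hoxc5, and may share reads.

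No gene of the Hox B cluster (7 tested) or the Hox D cluster (3 tested) was called, and 1 pad stood apart in both. Hoxb7 stood at 4.14, 5.17 and 30.3 FPKM in gonadal and 3.44, 4.15 and 4.10 FPKM in inguinal pads, and Hoxb6 at 1.91, 3.6 and 27.3 and 1.86, 3.44 and 2.33 FPKM. Hoxd9 stood at 2.04, 3.31 and 10.6 against 1.39, 1.33 and 1.80 FPKM. The high pad is the gonadal pad of M12 each time, the pad with the epididymis and male tract sum of 11795 FPKM, and the part of that tissue in these values was not tested. Without that pad 1 Hox D gene was called higher, and without the gonadal pad of M5 2 were.

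Secreted signals differed in parallel with these factors. Of 34 tested Wnt, BMP, TGF-beta, FGF and retinoid genes 18 were higher in gonadal fat and 4 lower (15 and 9 after rescaling), with a median of 0.78. Rspo1, an R-spondin that strengthens Wnt signals, stood at 20.7, 22.9 and 18.2 FPKM in gonadal and 0.413, 0.284 and 0.216 FPKM in inguinal pads (difference 4.71, SE 0.14, adjusted p = 8.96e-05). Wnt4, a Wnt ligand of urogenital development, stood at 21.7, 14.4 and 9.58 against 0.0695, 0.0946 and 0.0512 FPKM (difference 4.71, SE 0.29, adjusted p = 0.000297). Both ligand and enhancer thus stood near 0 in inguinal fat. Secreted inhibitors of Wnt were higher too: Sfrp1 by 3.21, Dkk3 by 3.57, Sfrp2 by 1.94 and Frzb by 1.22, which was not tested after rescaling. The ligand Wnt2b differed by 1.47.

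The enzymes that make retinoic acid shared this direction. Aldh1a2 stood at 41.6, 23.1 and 16.8 FPKM in gonadal and 1.08, 0.987 and 1.21 FPKM in inguinal pads (difference 4.02, SE 0.32, adjusted p = 0.000488). Aldh1a1 differed by 1.66 and Aldh1a3 by 1.80. Among BMP and TGF-beta genes the ligands Tgfb2 (2.55) and Bmp4 (1.55) and the BMP inhibitor Nog (1.77) were higher in gonadal fat. The growth factor Fgf18 was higher as well (0.87). Fgf1 and Gdf10 were called as higher in the comparison as reported (0.69 and 0.51) but not after rescaling (adjusted p = 0.15 and 0.3). Leaving out 1 pad also ended both calls, with adjusted p up to 0.0722 for Fgf1 (inguinal pad of M5) and 0.106 for Gdf10 (gonadal pad of M9), and Gdf10 was not called with the animal as a block (0.0776). Lower in gonadal fat were Fgf10, a mesenchymal growth factor (-1.08), the inhibitors Chrdl1 (-0.62) and Fst, follistatin (-0.71), and the ligand Bmp3 (-0.65). Bmp3 was not called with the animal as a block (adjusted p = 0.0758). Leaving out 1 pad ended the calls of Fst (0.0558 to 0.0761, either pad of M5, the gonadal pad of M12 or the inguinal pad of M9), Bmp3 (0.0556 to 0.0996, any pad of M5 or M9) and Chrdl1 (0.0502 without the gonadal pad of M12 and 0.0532 without the inguinal pad of M5). Without both pads of M5, Fgf10 (0.0749) and Frzb (0.0706) were not called.

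Matrix genes were mostly higher in gonadal fat, 22 of 39 against 5 lower (19 and 7 after rescaling, and 2 to 4 lower in fits that left out a pad or mouse), with a median of 0.81. The lower members were Mmp3, a matrix protease (-2.13), Postn, periostin (-0.63), and the collagen chains Col4a1 (-0.43), Col5a3 (-0.51) and Col6a3, which was not called with the animal as a block (adjusted p = 0.064). Fn1, fibronectin, stood at 734, 448 and 460.2 FPKM in gonadal and 18.9, 16.8 and 15.3 FPKM in inguinal pads (difference 4.93, SE 0.21, adjusted p = 0.000163). Fbln1, fibulin 1, differed by 2.63, Eln, elastin, by 2.42, Col16a1, a fibril-associated collagen, by 1.99, and Mgp, an inhibitor of calcification, by 3.68. Of 20 tested progenitor and fibroblast genes 10 were higher and 2 lower, with a median of 0.83. The lower ones were Pi16, a marker of early fat progenitors (-1.64), and F3, tissue factor (-1.07). Dcn, decorin, stood at 779, 669 and 563 against 157, 149 and 126 FPKM (difference 2.21, SE 0.15, adjusted p = 0.000368), and Pdgfra, the receptor that marks fat progenitors, at 33.5, 21.2 and 24.9 against 5.56, 4.53 and 4.75 FPKM (difference 2.29, SE 0.18, adjusted p = 0.000479). Every gonadal pad exceeded every inguinal pad for both. Anxa3, an annexin, differed by 2.15, Fmo2, a monooxygenase, by 1.58, and Clec11a, a secreted growth factor of stroma, by 1.42.

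Immediate early genes, which cells switch on within minutes of a stimulus, were higher in gonadal fat in 20 of 24 cases and lower in none, with a median of 1.20. After rescaling 15 were higher, and without both pads of M5 or of M9 11 and 13. Atf3, a stress-induced factor, stood at 82.0, 45.3 and 51.7 FPKM in gonadal and 1.32, 1.02 and 1.07 FPKM in inguinal pads (difference 5.16, SE 0.23, adjusted p = 0.000178). Fos stood at 26.2, 18.2 and 15.7 against 0.898, 0.779 and 1.34 FPKM (difference 3.76, SE 0.23, adjusted p = 0.000297). Egr2, a zinc finger factor, stood at 24.5, 13.5 and 33.4 against 0.685, 0.435 and 1.26 FPKM, with M12 the highest pad of each depot. Junb differed by 2.77 and Ier3 by 2.27. The median over the list was 1.63 in M5, 1.48 in M9 and 0.66 in M12.

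Stress genes of the endoplasmic reticulum were higher in 13 of 21 cases and lower in 2 (9 and 2 after rescaling, and 7 higher without both pads of M5 or of M9). The lower ones were the integrated stress genes Atf5 (-0.51) and Asns (-0.56, adjusted p = 0.0512 with the animal as a block). Besides Atf3, Sdf2l1, a chaperone component, stood at 51.1, 38.4 and 66.1 FPKM in gonadal and 10.7, 5.71 and 12.4 FPKM in inguinal pads (difference 2.40, SE 0.33, adjusted p = 0.00232). Hsp90b1, the chaperone GRP94, differed by 0.87, Calr, calreticulin, by 0.95, and Dnajb9, a co-chaperone, by 0.58. Cell cycle genes were higher in 15 of 23 cases and lower in none, with a median of 0.82, but only 7 were called after rescaling. Ccnb2, a cyclin of mitosis, stood at 11.2, 5.70 and 6.50 against 2.75, 1.84 and 2.38 FPKM (difference 1.51, SE 0.27, adjusted p = 0.00589), and Foxm1, a factor that drives mitotic genes, at 3.04, 2.39 and 2.82 against 0.899, 1.02 and 1.43 FPKM (difference 1.02, SE 0.17, adjusted p = 0.00466). M5 had the highest gonadal value of both. Without both pads of M5, Foxm1 (adjusted p = 0.0724) and Calr (0.0534) were not called. The count of cell cycle genes called higher fell to 6, 7, 7 and 8 when the inguinal pad of M5, the gonadal pad of M5, the gonadal pad of M9 or the inguinal pad of M9 was left out, and to 1 and 3 without both pads of M5 or of M9.

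**Figure D4:**
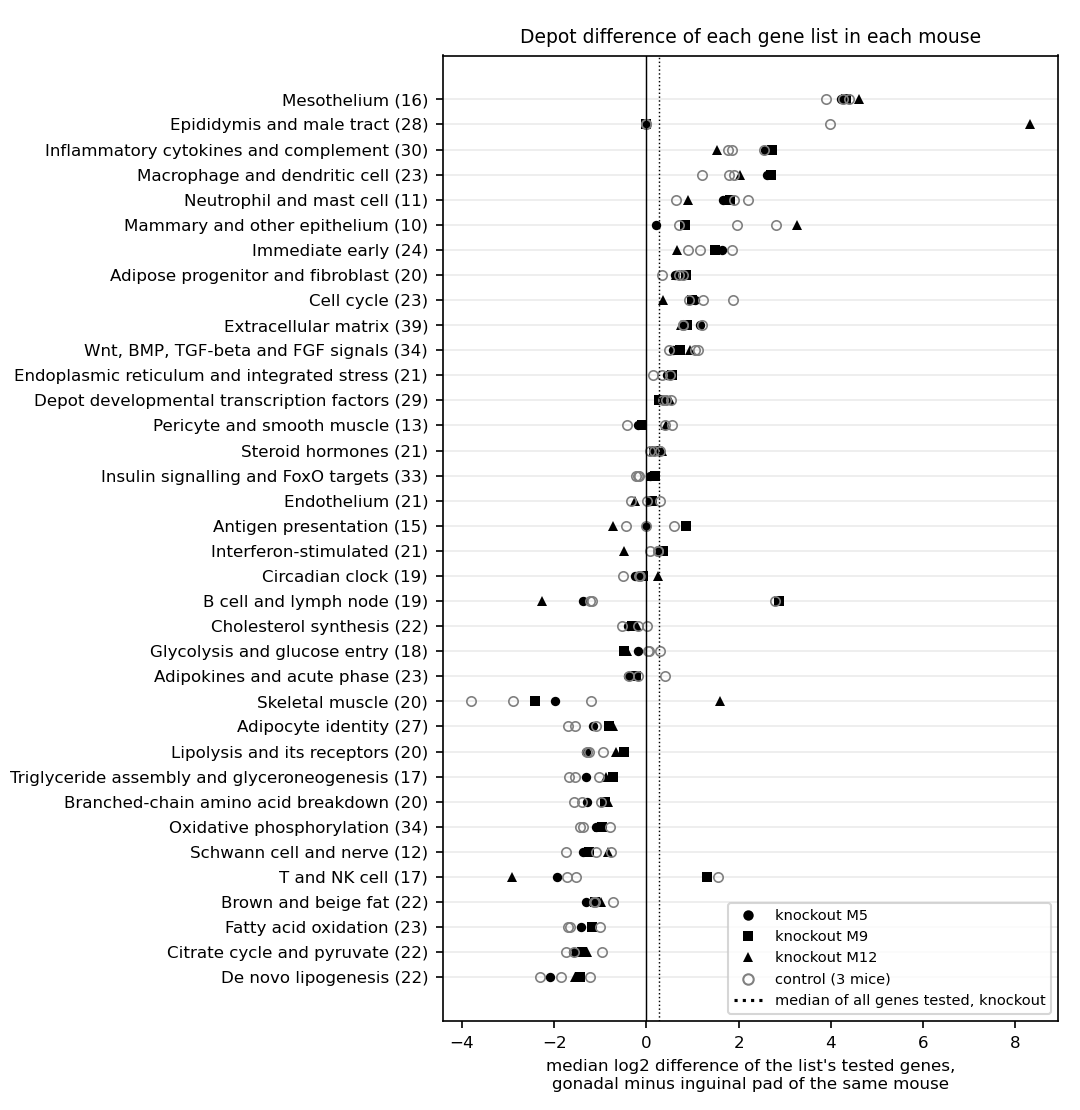
Median difference of each gene list, gonadal minus inguinal pad of the same mouse, on the log2(FPKM + 0.5) scale, for the 3 knockout mice (filled) and the 3 control mice (open), with the number of genes tested in parentheses. Mesothelium lies at 3.91 or above in every mouse, fatty acid oxidation, citrate cycle and lipogenesis lie below 0 in every mouse, and the epididymal list is high in M12 among the knockout mice.

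Genes of beige adipocytes led the inguinal side. Ucp1 (ENSMUSG00000031710, chromosome 8, 83290348 to 83298456, + strand, mm10), the proton channel that makes heat, stood at 19.4, 71.4 and 64.4 FPKM in inguinal pads and 0.0439, 0.0288 and 0.0313 FPKM in gonadal pads (difference -6.40, SE 0.49, adjusted p = 0.000462). Cidea, a lipid droplet protein of brown and beige fat, stood at 205, 278 and 239.8 against 1.21, 2.27 and 1.52 FPKM (difference -6.82, SE 0.20, adjusted p = 8.96e-05). The inguinal pad of M5 had the lowest level of both. Otop1, a proton channel found in brown fat, stood at 17.5, 26.9 and 23.5 against 0.322, 1.34 and 0.723 FPKM, and Cox8b, a cytochrome c oxidase subunit of brown fat and muscle, at 622, 777 and 627 against 30.0, 68.4 and 54.8 FPKM. These 2 genes differed by -4.21 and -3.78.

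Over the whole brown and beige list, 14 of 22 tested genes were lower in gonadal fat and 5 higher, with a median of -1.14. P2rx5, a purine receptor of brown and beige adipocytes, stood at 19.4, 21.8 and 16.7 FPKM in inguinal and 1.77, 2.08 and 1.65 FPKM in gonadal pads (difference -3.08, SE 0.13, adjusted p = 0.00016). The creatine genes of the list went the other way. Ckb, brain-type creatine kinase, stood at 89.5, 85.7 and 80.7 FPKM in gonadal and 23.4, 25.3 and 23.5 FPKM in inguinal pads (difference 1.80, SE 0.07, adjusted p = 0.00016). Gatm, which makes the creatine precursor, stood at 117, 76.1 and 61.2 against 4.58, 4.53 and 4.81 FPKM (difference 4.0, SE 0.23, adjusted p = 0.000273), and Slc6a8, the creatine transporter, at 30.6, 21.7 and 23.9 against 3.52, 3.98 and 3.62 FPKM (difference 2.61, SE 0.14, adjusted p = 0.000235). All 3 were thus higher in the depot with hardly any Ucp1. The macrophage marker sum moved in the same direction, and its part in these values was not tested. The other members higher in gonadal fat were Atp2a2, a calcium pump (0.58), and Tbx1, whose call was lost after rescaling (adjusted p = 0.0742) and with the animal as a block (0.0808).

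Transcripts of Schwann cells, the glia that wrap nerves, accompanied the inguinal pads. Sox10, the factor that specifies glia, stood at 1.14, 1.02 and 0.866 FPKM in inguinal and 0.0276, 0.0174 and 0.113 FPKM in gonadal pads (difference -1.45, SE 0.20, adjusted p = 0.00244), and Scn7a, a sodium channel of glia and neurons, differed by -0.89. Of 12 tested genes of the list 8 were lower in gonadal fat (4 without both pads of M5) and 2 higher, Egr2, which is also an immediate early gene, and Ngfr, a neurotrophin receptor (0.77), as the latter. Sox10 was not called without both pads of M5 (adjusted p = 0.0557). Ntrk3, the receptor for neurotrophin 3, stood at 8.24, 10.4 and 9.46 against 0.124, 0.225 and 0.329 FPKM (difference -3.77, SE 0.16, adjusted p = 0.00016). Of 13 tested pericyte and smooth muscle genes 3 were higher in gonadal fat, 4 lower and 6 not called, with a median of 0.28. Cspg4, a proteoglycan of pericytes, was among the lower ones (-1.74). Higher were the smooth muscle genes Acta2 and Tagln (1.51 and 1.17) and Pdgfrb, a receptor of pericytes. The call of Pdgfrb was lost after rescaling (adjusted p = 0.0972). Tagln was not called without both pads of M5 (adjusted p = 0.0745) or of M9 (0.0502).

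Mitochondrial genes were shifted toward inguinal fat without exception in 2 lists. All 34 tested nuclear genes of oxidative phosphorylation were lower in gonadal fat, with a median of -1.04, and all 22 genes of the citrate cycle and pyruvate use, with a median of -1.40. Both counts held after rescaling, with the animal as a block and in each fit that left out 1 pad, while 31 of 34 oxidative phosphorylation genes were called without both pads of M5. Sdhb, a subunit of succinate dehydrogenase, stood at 117, 126 and 115 FPKM in gonadal and 281, 293 and 277 FPKM in inguinal pads (difference -1.25, SE 0.07, adjusted p = 0.000295). Uqcrc2, a core subunit of complex III, differed by -1.39, Uqcrc1 by -1.15, Sdha by -1.53 and Ndufs1, a complex I subunit, by -1.57. The differences of these subunits are close to one another, from -1.15 to -1.57. Ndufs1 overlaps Eef1b2 in the annotation and may share reads with it.

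In the citrate cycle list Pdha1, the catalytic subunit of pyruvate dehydrogenase, stood at 53.0, 62.5 and 67.2 FPKM in gonadal and 304, 266 and 268 FPKM in inguinal pads (difference -2.19, SE 0.11, adjusted p = 0.000221). Pdk4, the kinase that shuts pyruvate dehydrogenase off and a known FoxO1 target, stood at 7.26, 5.60 and 5.58 against 71.0, 66.2 and 71.0 FPKM (difference -3.40, SE 0.11, adjusted p = 0.000111). Enzyme and inhibitor were therefore both higher in inguinal fat, the inhibitor by the larger ratio. The succinyl-CoA ligase subunits Sucla2 and Suclg1 differed by -1.73 and -1.37.

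Fatty acid oxidation followed, with 21 of 23 genes lower in gonadal fat and 1 higher, at a median of -1.27. The higher one was Cpt1a, the liver form of the carnitine transferase that admits fatty acids to mitochondria, at 44.9, 33.5 and 44.9 against 8.56, 9.0 and 11.4 FPKM (difference 2.03, SE 0.16, adjusted p = 0.000489). Hadhb and Hadha, the subunits of the mitochondrial trifunctional protein, stood at 32.9, 39.6 and 36.2 and 47.4, 48.4 and 54.1 FPKM in gonadal pads and at 164, 177 and 158 and 157, 158 and 158 FPKM in inguinal pads. Their differences were -2.19 (SE 0.09, adjusted p = 0.000163) and -1.65 (SE 0.07, adjusted p = 0.000178). Acadvl and Acadl, the dehydrogenases of very long and long acyl chains, differed by -1.85 and -1.56, and Etfdh, which passes their electrons on, by -1.26. Breakdown of branched-chain amino acids gave 18 of 20 genes lower and none higher, at a median of -1.0. Its members Hibch (-1.59), Bckdha (-1.21), Dld (-1.33), Auh (-1.0) and Mut (-1.19) encode steps from the branched-chain keto acid dehydrogenase to methylmalonyl-CoA mutase.

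Transcripts of the mitochondrial genome moved in the same direction with more spread. They took 1.5%, 4.29% and 3.98% of reads in gonadal pads and 7.78%, 9.76% and 8.54% in inguinal pads, so that no pad overlapped. Of the 13 protein-coding genes 11 were lower in gonadal fat, with a median of -1.55. mt-Co1, a cytochrome c oxidase subunit, stood at 3923, 10550.5 and 9892 FPKM in gonadal and 20115, 23861 and 21575 FPKM in inguinal pads (difference -1.55, SE 0.44, adjusted p = 0.0308). The low gonadal value is that of M5. mt-Cytb differed by -1.86 (adjusted p = 0.0215) and mt-Nd2 by -1.66 (adjusted p = 0.0333). The calls of these 3 genes were lost when any one inguinal pad was left out, with adjusted p = 0.0522 to 0.0834, and mt-Co1 also without the gonadal pad of M12 (0.0672).

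Lipid synthesis was higher in inguinal fat. Of 22 genes of de novo lipogenesis 17 were lower in gonadal fat and 1 higher, with a median of -1.65. The higher one was the desaturase Fads1 (0.68), which lost its call after rescaling (adjusted p = 0.189) and with the animal as a block (0.0828). Acaca, which makes malonyl-CoA, stood at 30.4, 47.0 and 56.0 FPKM in gonadal and 322, 296 and 297 FPKM in inguinal pads (difference -2.81, SE 0.22, adjusted p = 0.000493). Acacb, the form at the mitochondrial membrane, stood at 3.17, 4.86 and 5.37 against 58.6, 46.3 and 49.9 FPKM (difference -3.41, SE 0.20, adjusted p = 0.000271). In both genes M5 was the lowest gonadal pad. Elovl6, which lengthens palmitate, had one of the largest differences of the comparison, with 4.8, 9.74 and 18.7 FPKM in gonadal and 174, 192 and 198 FPKM in inguinal pads (difference -4.22, SE 0.44, adjusted p = 0.00102). Mlxipl, the glucose-sensing factor ChREBP, differed by -1.56, Tkt, transketolase, by -2.20, and G6pdx, which supplies NADPH, by -0.66. Slc2a5, the fructose transporter, stood at 0.0931, 0.278 and 4.16 against 14.4, 18.8 and 20.3 FPKM, with M12 the highest gonadal pad. It differed by -3.81 (adjusted p = 0.00969) but was not called without both pads of M5 (0.0865) or of M9 (0.0838).

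Scd1, the desaturase that makes oleate, was among the most abundant transcripts of all pads, with 3312, 7024 and 6057 FPKM in gonadal and 14922, 17620.4 and 16005 FPKM in inguinal pads (difference -1.63, SE 0.34, adjusted p = 0.0107). Fabp4, the fatty acid carrier of adipocytes and capillaries, stood at 6887, 10153 and 7423 against 17875, 17172 and 14873 FPKM and differed by -1.05 (adjusted p = 0.0214). Its call was lost with the animal as a block (adjusted p = 0.056), without the gonadal pad of M12 (0.143) and without the inguinal pad of M5 (0.0882). Without both pads of M12, Scd1 was not called either (adjusted p = 0.0955).

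Triglyceride assembly gave 13 of 17 genes lower in gonadal fat and 1 higher, with a median of -0.97. Pck1, the enzyme of glyceroneogenesis and another known FoxO1 target, stood at 203, 209 and 249 FPKM in gonadal and 1166, 960.1 and 997 FPKM in inguinal pads (difference -2.24, SE 0.13, adjusted p = 0.000271). Gpd1, which makes glycerol 3-phosphate, differed by -2.44, Plin5, a droplet protein that tethers mitochondria, by -2.70, and Lpin1, a phosphatidate phosphatase, by -1.36. Its relative Lpin2 was the member higher in gonadal fat (1.06).

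Lipolysis was lower in gonadal fat in 11 of 20 genes and higher in none, with a median of -0.93. Pnpla2, the first lipase of triglyceride breakdown, stood at 323, 355 and 349 FPKM in gonadal and 1202, 938 and 854 FPKM in inguinal pads (difference -1.53, SE 0.15, adjusted p = 0.000847). Lipe, hormone-sensitive lipase, differed by -1.14, and Prkar2b, the regulatory subunit of protein kinase A in fat, by -1.38. The receptors Adrb1, which starts lipolysis, and Adora1, which restrains it, were both lower, by -1.68 and -1.73. Of 27 adipocyte identity genes 16 were lower and 2 higher (Apoe and the factor Cebpb, 1.11), at a median of -0.92. The lower ones included Slc2a4, the insulin-responsive glucose transporter, at 33.6, 43.9 and 40.6 against 139, 139 and 126 FPKM (difference -1.77, SE 0.11, adjusted p = 0.000318), and Adipor2, an adiponectin receptor (-1.33). The list's summed level was 26441 to 34836 FPKM in gonadal and 38536 to 47354 FPKM in inguinal pads.

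Glucose use and sterol synthesis were divided. Of 18 glycolysis and glucose entry genes 9 were lower in gonadal fat (5 without both pads of M9) and 2 higher (Slc2a1 and the hexokinase Hk1, 0.99), with a median of -0.39. Aldoa, aldolase A, stood at 956, 882 and 899.9 FPKM in gonadal and 2078, 2161 and 2169 FPKM in inguinal pads (difference -1.23, SE 0.11, adjusted p = 0.000672). Slc2a1, the glucose transporter of most cells, stood at 45.8, 25.7 and 23.5 against 5.75, 4.32 and 6.80 FPKM (difference 2.35, SE 0.29, adjusted p = 0.00165), opposite to Slc2a4. The phosphofructokinase chains Pfkl and Pfkm differed by -0.65 and -0.85, the latter not without both pads of M5 (adjusted p = 0.0575). Of 22 cholesterol synthesis genes 8 were lower (4 without both pads of M9) and 3 higher. Insig1, the brake on sterol sensing, differed by -1.99, Pmvk, the phosphomevalonate kinase, by -1.54, Idi1 by -0.86 and Sc5d by -1.24. Among those called higher were Ebp (0.32) and the sterol factor Srebf2 (0.67), neither after rescaling (adjusted p = 0.617 and 0.103).

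Insulin signalling genes and FoxO targets did not move as a group, with 11 of 33 higher in gonadal fat, 9 lower and a median of 0.17 (9 higher, 12 lower and -0.10 after rescaling, and 7 higher and 5 lower without both pads of M5). Besides Pdk4 and Pck1, Irs1, the insulin receptor substrate, was lower in gonadal fat, at 1.59, 1.52 and 1.82 against 5.59, 4.79 and 4.89 FPKM (difference -1.38, SE 0.11, adjusted p = 0.000501). Sgk1, a kinase of the Akt family, was higher, at 69.3, 47.2 and 44.0 against 7.83, 7.58 and 7.4 FPKM (difference 2.71, SE 0.17, adjusted p = 0.000318), as was the cell death gene Bcl2l11, a known FoxO target (1.80). The largest depot differences of FoxO targets thus pointed in both directions, and the part of FoxO1 in them was not tested.

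Steroid hormone genes gave 8 of 21 higher and 4 lower (7 and 6 after rescaling), a share called higher close to that of all genes. Sult1e1, the oestrogen sulfotransferase, stood at 9.39, 8.67 and 10.9 FPKM in gonadal and 0.517, 0.316 and 0.275 FPKM in inguinal pads (difference 3.55, SE 0.15, adjusted p = 0.000163). Hsd11b1, which regenerates active glucocorticoid, stood at 32.1, 40.3 and 38.8 against 415, 304 and 307 FPKM (difference -3.18, SE 0.16, adjusted p = 0.000213). The gap between the depots exceeded the spread within either for both genes. Cyp7b1, an oxysterol hydroxylase, differed by 3.70, Star, the cholesterol importer of steroid-making mitochondria, by 1.98, and Srd5a3, a polyprenol reductase, by 1.18. The lower members were Hsd11b1, Esr1, the oestrogen receptor alpha (-1.05), and the aldo-keto reductases Akr1c18 (-2.20) and Akr1c14 (-0.78).

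Among adipokines and acute phase genes 10 of 23 were higher in gonadal fat and 7 lower, against 35.1% and 12.7% of all genes, and 9 were called each way after rescaling. Without both pads of M5 the counts were 6 and 4. The lower members included Orm1, an acute-phase protein (difference -1.58, SE 0.19, adjusted p = 0.00152), chosen after its values were seen. Metrnl, a secreted factor of fat and macrophages, stood at 145, 92.6 and 86.1 FPKM in gonadal and 10.4, 8.10 and 7.86 FPKM in inguinal pads (difference 3.52, SE 0.22, adjusted p = 0.000307). Ccl2, the chemokine that attracts monocytes, differed by 3.26, and Agt, angiotensinogen, by 2.25.

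Endothelial genes were near the level of all genes, with 5 of 21 higher in gonadal fat, below the 35.1% of all genes, 2 lower and a median of 0.09. Without both pads of M5 or of M9, 3 and 2 were higher. The members with the largest differences, each a known marker of lymphatic vessels, were higher: Flt4, the receptor for VEGF-C, stood at 7.82, 11 and 7.38 FPKM in gonadal and 1.30, 2.05 and 2.31 FPKM in inguinal pads (difference 1.96, SE 0.22, adjusted p = 0.00132), Lyve1 differed by 1.88 and Prox1 by 1.71. Lyve1 is also a member of the macrophage and dendritic cell list, and the part of macrophages in its value was not tested. The vessel genes Vwf (0.56) and Selp (0.70) were called higher but not after rescaling (adjusted p = 0.128 and 0.073), and Gpihbp1, which holds lipoprotein lipase on capillaries, was lower (-0.72), as was Fabp4. Prox1 was not called without both pads of M9 (adjusted p = 0.0553). Of 15 antigen presentation genes 1 was called, B2m, the light chain of MHC class I, which was lower in gonadal fat (-0.51, adjusted p = 0.0507 with the animal as a block), and 5 were lower after rescaling. Of 21 interferon-stimulated genes 3 were higher, Oasl2 (1.54), Oas1a (1.52) and Cxcl10 (1.18), and 2 lower, Ifit3 (-0.96) and Usp18 (-0.94), in place of which 2 were higher and 6 lower after rescaling. Cxcl10 was not called after rescaling (adjusted p = 0.0616). Of these, Cxcl10 and Usp18 were not called with the animal as a block (adjusted p = 0.0879 and 0.0836). Leaving out 1 pad could end the calls of Cxcl10 (adjusted p up to 0.101 without the inguinal pad of M5), Usp18 (0.139 without the same pad), B2m (0.0717 without the gonadal pad of M12), Selp (0.0558 without the gonadal pad of M5) and Eno3 (0.0991 without the gonadal pad of M9). Without both pads of M5, Oas1a (0.0638) and Vwf (0.074) were not called. None of the 19 B cell entries was called, where Faim3 counts again as Fcmr. The same held for the 17 T and NK cell and 8 red blood cell genes. None of the 28 epididymal genes was called either, but without the gonadal pad of M12 only 1 gene of that list passed the filter. Of 20 muscle genes 2 were lower, the myosin light chain Myl1 (-1.60) and the enolase Eno3 (-0.80, adjusted p = 0.0753 with the animal as a block). Without the inguinal pad of M9, however, 16 of the B cell entries and 12 of the T and NK cell genes were lower in gonadal fat, and 4 antigen presentation genes in place of 1. Without the inguinal pad of M12, 9 muscle genes were lower.

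In control mice the depots differed in the same directions wherever both genotypes gave a call. Of 14505 genes tested there, 3904 were higher in gonadal fat (26.9%) and 2106 lower (14.5%). Of 6910 genes called in knockout mice and tested in controls 5000 were also called in controls, all 5000 in the same direction. The controls' own differences were 10.07 for Saa3, 10.01 for Arg1, 5.63 for Wt1, -6.56 for Cidea and -3.76 for Hoxc10. Oxidative phosphorylation was lower in gonadal fat in all 34 genes in controls too (median -1.19), and the macrophage list was higher in 14 of 23 (median 1.47).

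Whether the depot difference was of another size in knockout mice was tested directly, as the interaction of depot and genotype over all 12 pads. No gene of 14577 was called (0%), with 0.619 the smallest adjusted p and 725 genes at an unadjusted p under 0.05. edgeR on the rebuilt counts called none either (690 unadjusted), nor did the fit on the difference within each mouse (866 unadjusted). On simulated interactions over 14540 genes 10% of 2-fold and 60% of 4-fold changes were recovered. The genes with the smallest p are given as values only. They were 9030619P08Rik, Cdkn2c, Haus7, Slc38a6 and Efcab4a toward a more positive difference in knockout mice, and Frzb, Acot11, Slc38a10, 6030419C18Rik and Mapk8ip1 toward a more negative one. Cdkn2c, a cell cycle inhibitor, differed by -0.13 in knockout and -1.21 in control mice. Frzb, the Wnt inhibitor, differed by 1.22 and 2.35, with control gonadal pads at 2.58, 2.52 and 3.02 FPKM against 0.974, 0.752 and 1.06 FPKM in knockout ones.

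**Figure D5:**
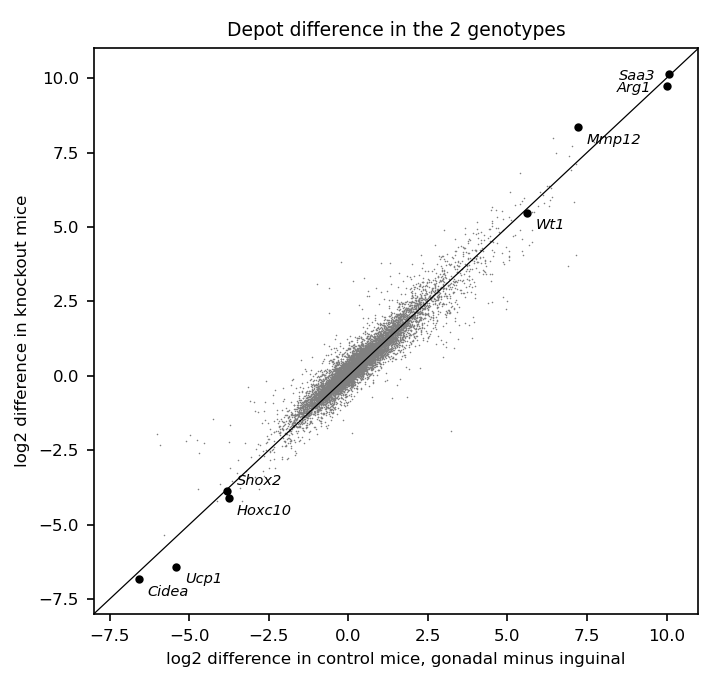
Depot difference of each gene tested in both genotypes, control mice on the horizontal and knockout mice on the vertical axis, both on the log2(FPKM + 0.5) scale, with the line of equal difference. Genes higher in one depot in knockout mice lie on the same side of 0 in control mice at both ends of the spread, from Cidea (-6.56 and -6.82) to Saa3 (10.07 and 10.14).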

How the data were processed

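Per the labels' protocols, fat RNA was purified on Qiagen RNeasy columns and sequenced from NEBNext Ultra libraries. CASAVA, STAR and the build mm10 are named in the submitters' processing notes, without versions, and the sources used here do not name a counting tool or strand setting. Per the file headers, the deposited table holds the authors' FPKM of 35275 genes for each of 24 libraries. The authors' read counts of the libraries, deposited beside their own comparisons for genes listed as changed, served only to find each library's total from genes with at least 50 reads. Multiplying FPKM by gene length and that total returned a whole number of reads, within 0.001, for 100% of values.

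Library names gave genotype, animal and pad, and no column was left unmatched. The 2 libraries of a pad were averaged, so n = 3 pads per depot. Genes with a mean of at least 0.5 FPKM over the pads were tested with limma 3.58.1 (trend, two-sided, R 4.3.3) on log2(FPKM + 0.5), and called at a Benjamini-Hochberg adjusted p under 0.05 over all genes tested. The interaction used all 12 pads in 4 groups. Rebuilt counts summed per pad were tested with edgeR 4.0.16 and DESeq2 1.42.0 as alternatives. Other alternatives were pseudocounts of 0.1 and 1, no filter or a minimum of 2 FPKM, the 6 libraries as replicates, other scalings, and leaving out pads or mice. Leaving out 1 pad leaves 2 against 3 pads, and leaving out both pads of a mouse 2 against 2.

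The animal numbers pair the pads, since pads with a number come from the same mouse as the names were read. Deviations from the depot means of pads of 1 mouse correlated across genes at 0.14 (M5), 0.003 (M9) and -0.10 (M12). The animal was therefore fitted as a block in an alternative. On simulated data over 14514 genes, with 100 genes changed 2-fold and 100 changed 4-fold, 26% and 75% of these changes between depots were recovered. There 7 unchanged genes were called. With so few changed genes the adjusted p is stricter than in the real comparison, where 47.8% of genes were called, so these shares do not give its recovery.

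The comparison, its gene lists (41 lists, matched by symbol) and the rules were chosen with earlier results of these data known. Lists are described by counts and medians, with no test of a list. Named genes are Foxo1, the 10 genes each way with the largest difference among called genes without overlap between depots and with at least 5 FPKM in the higher depot, the 5 each way with the highest level among called genes that differ at least 2-fold, up to 5 members of a list with the smallest p, all called members of the development lists, and 5 each way for the interaction. Unnamed models, pseudogenes and genes of the epididymis, muscle and red blood cell lists were left out of the first. Members named as the few called against the direction of their list, the promoter genes Cd68 and Itgax, and the genes of the last observation were chosen after their values were seen. Promoter sequences are from RefSeq (GRCm38.p6). Tables were made with Python 3.11.15, pandas 2.3.3 and numpy 2.4.6. Some genes that the rule names are not reported here.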

Additional observations from a re-analysis of the deposited data

Results flagged for a closer look

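For 4 results the depot difference took one sign in all 3 knockout mice and the other in all 3 control mice. The median of the 18 glycolysis and glucose entry genes was -0.393 over knockout mice, with -0.19, -0.49 and -0.43 in M5, M9 and M12 and 0.03, 0.29 and 0.06 in the controls M6, M7 and M10. For the 33 insulin signalling genes and FoxO targets it was 0.172, with 0.07, 0.19 and 0.11 in knockout and -0.19, -0.22 and -0.17 in control mice. Neither difference between the genotypes was tested for the list. After rescaling, the knockout medians became -0.67 for the first list and -0.10 for the second. Control pads were not rescaled, so whether the opposite signs hold under that scaling is not known.

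The unnamed gene 9030619P08Rik differed by 0.640 between the depots of knockout mice (adjusted p = 0.0665) and by -1.13 in controls. Its interaction was 1.77 (SE 0.29, unadjusted p = 0.000104, limma adjusted p = 0.619). The amino acid transporter gene Slc38a10 differed by -0.442 in knockout mice and by 0.08 in controls, with an interaction of -0.52 (SE 0.10, unadjusted p = 0.000543, limma adjusted p = 0.733). Neither interaction passed the correction over 14577 genes. Each sign held in 3 of 3 mice of its genotype, but for 9030619P08Rik the difference was only 0.03 in M5, against 0.94 in M9 and 0.95 in M12. Both genes were named for their small interaction p, so their opposite signs in the genotypes add no support. The share of all genes or lists with such signs is not given here. Groups of 3 were too small for a search for single outlying samples.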

How the results depend on the processing

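Scaling and the choice of mice moved the counts most. In place of 5122 higher and 1849 lower genes, size factors gave 3059 and 3105, edgeR on rebuilt counts 3565 and 3055, DESeq2 3900 and 3559, and edgeR with the replicate block 2974 and 2713. The replicate block in limma gave 4691 and 1674. It ended the calls of 9 of the 208 named genes. Without 1 pad or 1 mouse the counts ranged from 2124 to 4967 and from 923 to 1817. The lowest were without both pads of M5 (2124 and 923), and without both pads of M9 they were 2879 and 1259. Pseudocounts and filters left both counts within 1.5 times. The interaction called 265 genes with 6 libraries per group as replicates, which share their pads, and 0 in the 12 other alternatives. In control mice the replicate block gave 3228 and 1864 in place of 3904 and 2106.

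The uncalled difference of Foxo1 turned from 0.09 to -0.16 with size factors, -0.21 with edgeR, -0.24 with DESeq2 and -0.15 with edgeR and the replicate block. Without 1 pad or 1 mouse it ranged from -0.24 to 0.36, and it was -0.19 without the inguinal pad of M9. Of 208 named called genes none reversed in the alternatives that tested it. Of them 182 were tested in all 21 alternatives, and 154 of these kept their call in each. Without a filter on low values 14 lost theirs, among them the abundant Fth1, mt-Co1, Fabp4, Scd1, mt-Cytb and mt-Nd2. Of the 41 list medians, 5 changed sign with size factors. At 3 mice a 2-fold change was recovered in 26% of simulated cases, though with few changed genes and thus a stricter adjusted p than here. A gene not called is not shown to be equal between depots.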

Other observations

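Clock genes differed between the depots of knockout mice in opposite directions. Of 19 tested, 5 were higher in gonadal fat and 9 lower (3 and 9 after rescaling). In place of these, 2 and 3 were called without both pads of M5, 3 and 3 without those of M9, and 5 lower without the inguinal pad of M5. Arntl, the BMAL1 activator of the clock, stood at 4.81, 4.28 and 4.91 FPKM in gonadal and 1.53, 1.18 and 1.84 FPKM in inguinal pads (difference 1.37, SE 0.15, adjusted p = 0.00116 by limma). Nfil3, a repressor of its output genes, was higher too (1.80). The clock repressor Nr1d1, which lowers Arntl, stood at 23.2, 24.1 and 29.7 against 53.6, 48.7 and 48.2 FPKM (difference -0.96, SE 0.11, adjusted p = 0.00143), and the output factor Dbp at 25.6, 26.5 and 31.6 against 64.8, 58.6 and 53.0 FPKM (difference -1.06, SE 0.12, adjusted p = 0.00111). Arntl was therefore high where Nr1d1 and Dbp were low, in all 3 mice. Nr1d1 overlaps Thra, and Dbp overlaps Sphk2. The control mice gave the same signs, with 0.97 for Arntl, -0.75 for Nr1d1 and -1.02 for Dbp. The sources used here do not give the times at which the pads were taken.

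Of 10 tested epithelial genes 3 were higher in gonadal pads, 1 was lower and 6 were not called, so the share called higher was below that of all genes. The list's median difference was 0.20, 0.85 and 3.26 in M5, M9 and M12, and M12 is the mouse with the epididymal signal, whose part in these values was not tested. Krt7, a keratin of simple epithelia and mesothelium, stood at 6.88, 5.57 and 7.30 FPKM in gonadal and 0.407, 0.170 and 0.170 FPKM in inguinal pads (difference 3.25, SE 0.18, adjusted p = 0.000247 by limma). Cldn3, a tight junction protein, stood at 11.1, 11.7 and 51.5 against 0.629, 0.317 and 0.334 FPKM, with M12 the highest pad.

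In each depot M12 had the lowest level of the MHC class II genes H2-Eb1 and H2-Aa, chosen after their values were seen. For H2-Aa its inguinal pad lay near that of M9. The summed antigen presentation list was lowest in M12 among gonadal pads (3582 FPKM) but highest in M12 among inguinal pads (5693 FPKM). H2-Eb1 stood at 127, 126 and 8.35 FPKM in gonadal and 128, 54.3 and 14.9 FPKM in inguinal pads, and H2-Aa at 159, 156 and 29.4 and 151, 64.1 and 53.6 FPKM. In control gonadal pads the values were 279.8, 234 and 249 FPKM for H2-Eb1 and 344, 261 and 281 FPKM for H2-Aa. Control inguinal values of these genes are not reported here.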
